A study of Mus musculus with 5 samples.

Results

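Ccl5, Cxcl9, Cxcl10, Cxcl11, Cxcl16 and Cx3cl1 encode chemokines that attract T cells, and they were taken by gene symbol as a set of 6 of the 18194 genes with a single-symbol probe set on the arrays. They were read by 12 of 45101 probe sets. The material was RNA from cultures labelled as aortic endothelial cells of the C57BL/6J background, measured on 5 one-colour arrays at a time of 24 h in the titles. By title, 2 arrays were TNF-LTBR (an inflammatory cytokine and the lymphotoxin beta receptor, with no agonist or dose stated) and 3 were control. The treatment text, which names PBS alone as the supplement, is the same for all 5, so only the titles set the TNF-LTBR group apart. All cultures shared a medium with serum, heparin and an endothelial growth supplement. The labels leave unsaid whether the replicates are distinct cultures or animals, and each p-value below therefore reflects a spread between arrays that may be technical only.

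Chemokines bind G protein-coupled receptors on leukocytes and direct their migration. Ccl5 acts on several CC chemokine receptors, among them Ccr1 and Ccr3, carried by memory T cells, monocytes and eosinophils. Cxcl9, Cxcl10 and Cxcl11 share the receptor Cxcr3 of activated T cells and are known as interferon-induced genes, while Ccl5 is a classic target of NF-kB and interferon regulatory factors. Cxcl16 and Cx3cl1 are the transmembrane members of the chemokine family. They hold T cells and monocytes at the cell surface through Cxcr6 and Cx3cr1, and metalloproteinases release them as soluble attractants.

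The 6 chemokines had different profiles over the arrays. Ccl5 and Cxcl16 were higher on both TNF-LTBR arrays than on every control array, whereas Cxcl10, Cx3cl1, Cxcl9 and Cxcl11 overlapped between the groups. Of the 6 genes, 5 had a higher mean in TNF-LTBR, where 52.3% of all 18194 genes did. Without overlap and above the controls stood 2 of the 6, against 8.6% of all genes. The median log2 change was 0.57 over the 6 chemokines and 0.01 over all genes. In the limma test none of the 6 passed after Benjamini-Hochberg adjustment, nor did any gene (0 of 10916 tested, 0%), while 192 genes, 1.76%, had an unadjusted p under 0.05. By that unadjusted measure 2 of the 6 chemokines, Ccl5 and Cxcl16, lay under 0.05, where 2.64% of all genes did in the fit without a brightness filter. The 6 chemokines, and the gene lists below, were chosen with earlier results of these data known. Their counts beside the shares of all genes are therefore descriptions and not tests.

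**Figure D1:**
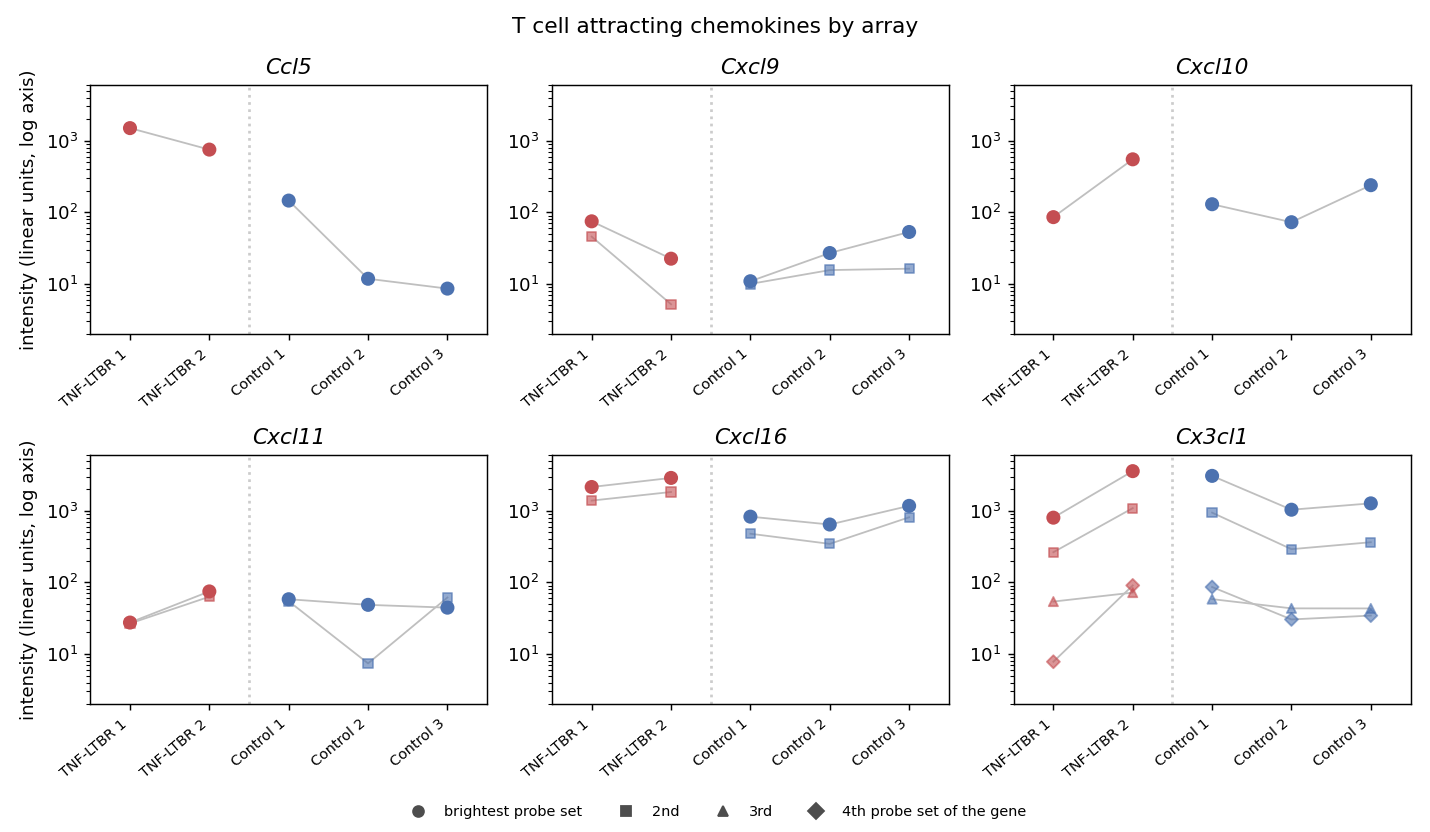
Intensity of every probe set of the 6 chemokines (linear units on a log axis) on TNF-LTBR arrays 1 and 2 (red) and control arrays 1 to 3 (blue), with 1 point per array, marker shape for the probe set and lines only to join points of 1 group. Ccl5 and both Cxcl16 probe sets lie higher on the TNF-LTBR arrays than on all controls, and the other chemokines overlap.

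The arrays of a group were not alike across the transcriptome. Over the 10916 genes tested, the deviation of TNF-LTBR array 1 from its group mean correlated with that of control array 2 at 0.80, and the deviation of TNF-LTBR array 2 with that of control array 3 at 0.81. These values are across genes, which are not independent replicates, and the deviations of the 2 TNF-LTBR arrays are mirror images by construction. Of 11 endothelial marker genes 5 passed the brightness filter, and the summed intensity over all 11 was 3518 and 3022 on the TNF-LTBR arrays and 2940 to 4040 on the control arrays. The groups overlapped for 10 of the 11, and 1 was higher without overlap, where 8.6% of all genes were. None was lower without overlap, against 6.34% of tested genes. The marker without overlap was Plvap, a gene of fenestrated endothelium, with 470 and 759 in TNF-LTBR and 461, 401 and 452 in control. The endothelial genes named here were picked outside the rule for named genes. Pecam1 lay at 120.8 and 52.6 in TNF-LTBR and at 199, 161 and 56.0 in control, and Vwf at 2.9 to 5.8 in TNF-LTBR and 2.3 to 7.2 in control. Both, with Cdh5, Tie1, Tek and Cldn5, were under the brightness limit, whereas Eng, encoding endoglin, read 1563 and 1694 in TNF-LTBR and 1550 to 1858 in control. Of 6 smooth muscle markers 4 passed, with sums of 6684 and 3772 in TNF-LTBR and 3901 to 14055 in control. All 7 fibroblast and pericyte markers passed, with summed intensities of 58371 and 84988 in TNF-LTBR and 49252 to 85818 in control. The part of these markers in the chemokine values was not tested. In RNA from whole cultures, fewer cells of a type and less RNA per cell cannot be told apart.

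Ccl5, also called RANTES, had 1 probe set. Its intensity was 1498 and 750 on TNF-LTBR arrays 1 and 2, and 146, 11.8 and 8.6 on control arrays 1 to 3. The groups did not overlap, since the lower TNF-LTBR array was 5.15 times the highest control. Among the controls, array 1 stood apart, and the highest control was 16.9 times the lowest. On the log2(intensity + 16) scale, which understates changes of dim genes, Ccl5 averaged 10.07 ± 0.69 in TNF-LTBR and 5.58 ± 1.52 in control (SD, n = 2 and 3). The log2 change was 4.49 ± 0.92 (SE, limma, unadjusted p 0.00399, adjusted p 0.999). No other tested gene had a larger log2 change in this fit, which Ccl5 entered through its TNF-LTBR values. In the fit without a filter the unadjusted p of Ccl5 was 0.00304 (limma, adjusted p 0.9997). Its log2 change was the largest of 18194 genes there.

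The size of the Ccl5 difference depended on how its dim control values were treated. It was 5.34 with 1 added to the intensity in place of 16 and 3.43 with 64 added. Without control replicate 1 the change was 5.36, and it lay between 3.997 and 4.98 without any other single array. Ccl5 ranked number 4 by log2 change without control replicate 2, where Ccl7 led at 4.39, and number 3 of all 18194 genes without TNF-LTBR replicate 2, where the acute phase gene Saa3 led at 5.56. Its control mean of 5.58 was under the brightness limit of 7.17, so the gene entered the test through its TNF-LTBR values. Without either TNF-LTBR array, and with 1 added, it was itself under the limit, and its values there come from the fit without a filter.

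T cells, natural killer cells and macrophages also make Ccl5, and their markers were read on the same arrays. Of 7 T and NK cell markers with a probe set, 1 passed the filter, Cd8a. All 7 overlapped between the groups, where 8.6% of all genes were higher and 6.34% of tested genes lower without overlap. Their summed intensity was 620 and 384 in TNF-LTBR and 398, 604 and 491 in control. Most of this sum was Cd8a, on a probe set whose suffix marks shared sequence. It read 460 and 284 in TNF-LTBR and 309, 460 and 298 in control. The T cell receptor subunit gene Cd3d lay at 13.8 and 8.1 in TNF-LTBR and at 5.9, 8.2 and 14.3 in control. Of 10 macrophage markers 7 passed, and the sum was 9633 and 3165 in TNF-LTBR and 4436, 8701 and 2841 in control. The groups overlapped for 9 of the 10, and 1 was higher without overlap, where 8.6% of all genes were. The marker without overlap was the integrin gene Itgam, under the brightness limit and named after its values were seen. It read 118.7 and 35.9 in TNF-LTBR and 21.8, 24.7 and 5.3 in control. From high to low, the arrays ran TNF-LTBR 1, TNF-LTBR 2, control 1, control 2 and control 3 for Ccl5, and TNF-LTBR 1, control 2, control 1, TNF-LTBR 2 and control 3 for the macrophage sum. The part of these cells in the Ccl5 values was not tested.

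By the root mean square difference of log2 values over the 5 arrays, each gene centred on its own mean, the tested genes most like Ccl5 were Nfkbie (1.16), Tnfrsf9 (1.48) and Spib (1.52). Nfkbie encodes an inhibitor of NF-kB, Tnfrsf9 a costimulatory member of the TNF receptor superfamily and Spib an Ets family transcription factor. All 3 lay above the controls on both TNF-LTBR arrays, with log2 changes of 2.86, 1.93 and 2.58. Nearest genes, here and below, were picked by array profile, so a shared pattern follows largely from that choice. The smallest differences for Cxcl16, Cxcl10 and Cx3cl1 were 0.15 to 0.28, and the nearest genes were not sought for Cxcl9 and Cxcl11. Of the other chemokines of the set that were tested, Cxcl16 was the nearest to Ccl5, at 1.84, against 2.41 for Cx3cl1 and 2.43 for Cxcl10. The measure was not scaled to the size of a gene's changes, which were large for Ccl5. Directly beside Ccl5 in the RefSeq gene order (assembly GRCm38.p6) stands Ccl9, another CC chemokine gene. Ccl9 lay at 7039 and 11752 in TNF-LTBR and at 1972, 3356 and 5571 in control, a log2 change of 1.45 (limma adjusted p 0.999).

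Cxcl16, the membrane-bound ligand of Cxcr6, showed a smaller difference with less spread between arrays. Its brightest probe set read 2148 and 2876 on TNF-LTBR arrays 1 and 2 and 828, 643 and 1171 on control arrays 1 to 3. The second probe set read 1387 and 1829 in TNF-LTBR and 478, 345 and 811 in control. On both probe sets TNF-LTBR array 2 was the highest and control array 2 the lowest, and the groups did not overlap. The lower TNF-LTBR array was 1.83 times the highest control on the brightest probe set and 1.71 times on the second. On the log2 scale the brightest probe set averaged 11.29 ± 0.30 in TNF-LTBR and 9.77 ± 0.43 in control (SD, n = 2 and 3). The log2 change was 1.52 ± 0.29 (SE, limma, unadjusted p 0.00301, adjusted p 0.999), and 1.61 on the second probe set. Leaving out single arrays gave 1.31 to 1.75.

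The tested genes most like Cxcl16 in array profile were Birc3 (root mean square difference 0.16), Birc2 (0.21) and Psmb10 (0.23). Birc3 and Birc2 encode inhibitors of apoptosis that also act in TNF receptor signalling, and Psmb10 encodes a subunit of the immunoproteasome. Picked for likeness to Cxcl16, they had log2 changes of 1.58, 1.46 and 1.17, and none overlapped between the groups. The Birc3 value rested on a probe set whose suffix marks sequence shared between transcripts, and was 0.015 without such probe sets and 0.80 averaged over its probe sets. The metalloproteinases that shed Cxcl16 and Cx3cl1 differed by less than the larger SD of their groups. Adam10 averaged 12.83 ± 0.18 in TNF-LTBR and 12.86 ± 0.16 in control, and Adam17 10.97 ± 0.23 in TNF-LTBR and 10.70 ± 0.32 in control (SD, n = 2 and 3, log2 scale).

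**Figure D2:**
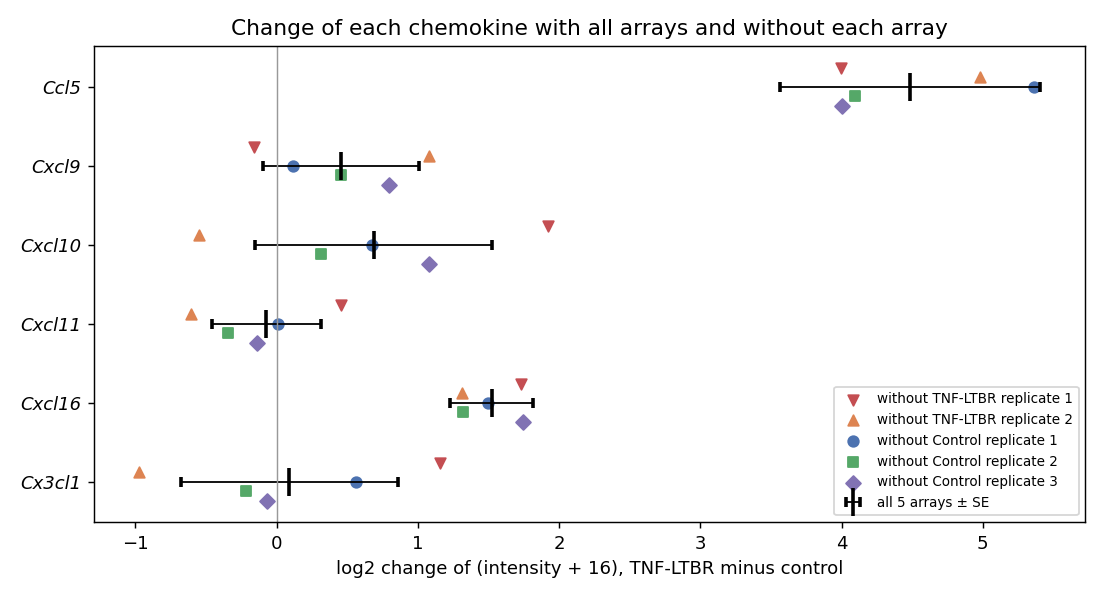
Change of each chemokine, TNF-LTBR minus control on the log2(intensity + 16) scale, with all 5 arrays (black bar, with SE) and without each array in turn (coloured markers). Ccl5 stays between 3.997 and 5.36 and Cxcl16 between 1.31 and 1.75, while the other 4 chemokines have values on both sides of 0.

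Cxcl10, or IP-10, separated arrays within each group rather than the groups. Its probe set read 85.6 and 549 on TNF-LTBR arrays 1 and 2, and 130, 72.7 and 239 on control arrays 1 to 3. TNF-LTBR array 2 was 6.41 times TNF-LTBR array 1, while the highest control was 3.29 times the lowest. TNF-LTBR array 1 lay within the controls. The group means were 7.90 ± 1.75 in TNF-LTBR and 7.22 ± 0.76 in control (SD, n = 2 and 3, log2 scale), a change of 0.69 ± 0.84 (SE, limma adjusted p 0.999). Without TNF-LTBR replicate 1 the change was 1.92, and without TNF-LTBR replicate 2 it was -0.55.

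The order of the 5 arrays for Cxcl10, from high to low, was TNF-LTBR 2, control 3, control 1, TNF-LTBR 1 and control 2. The mean of 11 tested genes induced by type I interferon had the same order, with log2 levels of 9.53 and 11.42 in TNF-LTBR and 10.45, 8.99 and 11.24 in control. So did the mean of 7 tested genes induced by interferon-gamma, with 9.70 and 10.75 in TNF-LTBR and 9.85, 8.93 and 10.28 in control. Cxcl16 and the means of the transcription factor and of the cytokine and receptor lists below also had TNF-LTBR 2 highest and control 2 lowest. The share of all genes with either pattern was not counted. The genes most like Cxcl10 were Irf7 (root mean square difference 0.15), AW112010 (0.19) and Mlph (0.21), and each overlapped between the groups. Irf7, an interferon regulatory factor and itself 1 of the type I interferon list, read 359 and 2089 in TNF-LTBR and 572, 305 and 1212 in control. The transcripts of the interferons were dim, with Ifng at 27.2 and 4.7 in TNF-LTBR and 2.7, 35.6 and 11.6 in control. Ifnb1 lay at 101 and 57.4 in TNF-LTBR and at 72.2, 69.6 and 103 in control.

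Promoter windows of 250 bases before to 50 after the gene start (RefSeq, GRCm38.p6) were held for 3 of the 6 chemokines, namely Cxcl9, Cxcl10 and Cx3cl1. All windows held are shown, and their part in the array profiles was not tested. Capitals mark matches, on either strand, to the kappaB consensus or to the core of the interferon-stimulated response element (GAAANNGAAA), and the gamma-activated site (TTCNNNGAA) was searched as well. The windows lie at chr5:92348840-92349139 (minus strand) for Cxcl10, chr5:92328030-92328329 (minus strand) for Cxcl9 and chr8:94771930-94772229 (plus strand) for Cx3cl1, each written 5′ to 3′ along the gene.
Cxcl10: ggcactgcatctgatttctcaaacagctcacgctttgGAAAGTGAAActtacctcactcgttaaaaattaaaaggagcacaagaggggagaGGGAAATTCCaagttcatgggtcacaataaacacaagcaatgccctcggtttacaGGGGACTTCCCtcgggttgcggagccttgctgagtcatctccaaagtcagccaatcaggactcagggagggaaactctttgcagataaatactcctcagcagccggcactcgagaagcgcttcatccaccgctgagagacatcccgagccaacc
Cxcl9: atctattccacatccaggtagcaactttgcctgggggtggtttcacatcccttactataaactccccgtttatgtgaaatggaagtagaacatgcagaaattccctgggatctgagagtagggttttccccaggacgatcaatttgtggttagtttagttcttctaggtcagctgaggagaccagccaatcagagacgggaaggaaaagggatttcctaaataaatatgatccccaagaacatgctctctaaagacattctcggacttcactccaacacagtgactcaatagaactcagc
Cx3cl1: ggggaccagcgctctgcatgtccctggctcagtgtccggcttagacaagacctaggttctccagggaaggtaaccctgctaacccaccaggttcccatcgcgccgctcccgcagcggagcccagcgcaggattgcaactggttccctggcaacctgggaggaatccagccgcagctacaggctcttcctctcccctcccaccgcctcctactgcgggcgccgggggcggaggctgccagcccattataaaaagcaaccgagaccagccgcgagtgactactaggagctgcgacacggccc
The Cxcl10 window held GAAAGTGAAA at -213 to -204 from the gene start and kappaB matches GGGAAATTCC at -159 to -150 and, overlapping each other, GGGGACTTCC at -104 to -95 and GGGACTTCCC at -103 to -94. The last of these matched on both strands. No match to the 3 motifs was found in the Cxcl9 and Cx3cl1 windows. Among 32851 windows of the same length, 8.46% held a kappaB match, 3.44% the interferon element core and 8.3% the gamma-activated site. A match describes letters in the window and not a bound site.

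Cxcl9, or MIG, and Cxcl11, or I-TAC, the other Cxcr3 ligands, were under the brightness limit on all their probe sets. Cxcl9 read 74.8 and 22.5 in TNF-LTBR and 10.9, 27.0 and 53.1 in control on its brighter probe set. On the dimmer one it read 45.7 and 5.2 in TNF-LTBR and 10, 15.6 and 16.3 in control. TNF-LTBR array 1 was the highest on both, and TNF-LTBR array 2 lay within or under the controls. The log2 change was 0.46 ± 0.55 (SE) in the limma fit without a filter (adjusted p 1.000). The array order of Cxcl9 thus differed from that of Cxcl10, whose highest array was TNF-LTBR 2.

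Cxcl11 is annotated as a transcribed pseudogene in the RefSeq table of the C57BL/6J assembly, a strain known to lack a functional Cxcl11 protein. Its brighter probe set read 27.5 and 74.8 in TNF-LTBR and 58.2, 48.6 and 44.4 in control, and its second 26.7 and 63.1 in TNF-LTBR and 54.6, 7.4 and 61.5 in control. TNF-LTBR array 2 was the highest on both probe sets, and the groups overlapped. The log2 change was -0.07 ± 0.39 (SE, limma without a filter, adjusted p 1.000) on the brighter and 0.21 on the second. In the RefSeq order of start coordinates Cxcl10 and Cxcl11 are direct neighbours, and Art3 comes between Cxcl9 and Cxcl10. Where these genes end was not compared.

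Cx3cl1, or fractalkine, known as a chemokine of endothelial cells that TNF induces, had group means that lay close together and varied widely within each group. Its brightest probe set read 801 and 3577 on TNF-LTBR arrays 1 and 2 and 3071, 1035 and 1269 on control arrays 1 to 3. TNF-LTBR array 2 and control array 1 were the highest arrays on all 4 of its probe sets. The second probe set read 264 and 1089 in TNF-LTBR and 942, 291 and 364 in control. The third ran from 54.0 to 72 in TNF-LTBR and 43.3 to 58.4 in control, and the fourth from 7.8 to 90.7 in TNF-LTBR and 30.4 to 86.2 in control. TNF-LTBR array 1 was the lowest of all arrays on 3 of the 4 probe sets, and control array 3 on the other.

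On the log2 scale Cx3cl1 averaged 10.74 ± 1.51 in TNF-LTBR and 10.65 ± 0.83 in control (SD, n = 2 and 3), a change of 0.09 ± 0.77 (SE, limma adjusted p 0.999). It was 1.16 without TNF-LTBR replicate 1, -0.98 without TNF-LTBR replicate 2 and 0.56 without control replicate 1. The tested genes most like it were Stc2 (root mean square difference 0.28), Cdo1 (0.31) and Slc7a11 (0.34), which encode a secreted glycoprotein, an enzyme of cysteine breakdown and a cystine transporter. Like Cx3cl1, by whose profile they were picked, they were higher on TNF-LTBR array 2 and control array 1 than on TNF-LTBR array 1 and control array 2. The protein-coding neighbours of Cx3cl1 in the RefSeq order are the chemokine genes Ccl22 and Ccl17, named here after their values were seen. Ccl22 read 21.4 and 49.1 in TNF-LTBR and 19.0, 11.1 and 6.8 in control, and Ccl17 109 and 55.7 in TNF-LTBR and 41.3, 55.1 and 53.2 in control. Both were dim and higher without overlap, where 8.6% of all genes were.

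**Figure D3:**
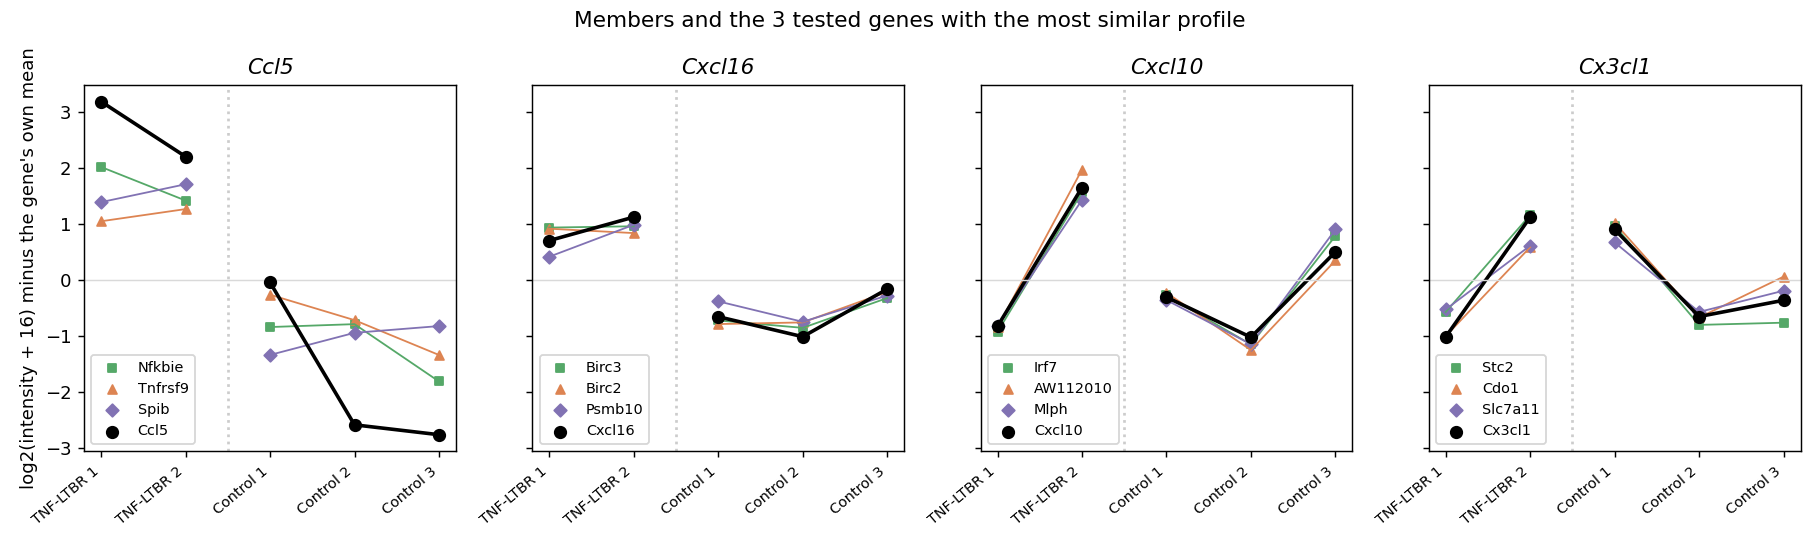
Array profiles of Ccl5, Cxcl16, Cxcl10 and Cx3cl1 (black) and of the 3 tested genes most like each (colours), as log2(intensity + 16) minus the gene's own 5-array mean, with lines only to join points of 1 group. Ccl5 and Cxcl16 and their nearest genes, picked by profile, are higher on both TNF-LTBR arrays. Cxcl10 peaks on TNF-LTBR array 2 and then control array 3, and Cx3cl1 is high on TNF-LTBR array 2 and control array 1.

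The receptors for these ligands, most of which leukocytes carry, were mostly dim. Of 8 receptors analysed 3 passed the filter, Cxcr3, Ackr1 and Ackr3. Cxcr3 had a log2 change of -0.15, and Ackr1, an atypical receptor that binds chemokines without signalling, one of 0.10. Ackr3, an atypical receptor for Cxcl11 and Cxcl12, read 1389 and 187 in TNF-LTBR and 161, 1632 and 169 in control, high on TNF-LTBR array 1 and control array 2. In the fit without a filter the log2 change was 0.64 for Ccr1, -0.13 for Ccr3, 0.34 for Cxcr6 and 0.25 for Ackr2, a scavenger of CC chemokines. The Cx3cl1 receptor gene Cx3cr1 read 31.5 and 7.4 in TNF-LTBR and 64.6, 61.5 and 55.8 in control, lower without overlap but dim on every array, with a log2 change of -1.20 (limma without a filter, adjusted p 1.000). That change was -0.55 averaged over probe sets and -1.71 to -0.69 without single arrays, and the change of Ccr1 was 0.0016 averaged over probe sets.

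Among 6 enzymes that process these chemokines, 4 passed the filter, 1 of them higher and 3 lower in TNF-LTBR, and all 4 overlapped. Of all tested genes 6.94% were higher and 6.34% lower without overlap. The log2 change was -0.03 for Adam10, 0.27 for Adam17, -0.24 for the gelatinase gene Mmp2 and -1.10 for the cathepsin gene Ctss. Ctss read 1060 and 9.0 in TNF-LTBR and 551, 1053 and 55.3 in control. Mmp9, another gelatinase, was dim at 197 and 95.0 in TNF-LTBR and 76.6, 86.6 and 22.5 in control. It was the 1 of the 6 enzymes that was higher without overlap, where 8.6% of all genes were. Dpp4, a peptidase that trims Cxcl10, had a log2 change of -0.05 without a filter.

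Of transcription factors listed as regulators of these genes, together with inhibitors of NF-kB signalling, 13 were analysed and 11 tested. In TNF-LTBR 9 were higher and 2 lower, where 49.3% of all tested genes were higher, and the median log2 change was 0.57, against -0.00346 over all genes tested. In 5 of the 11 the groups did not overlap and TNF-LTBR was the higher, against 6.94% of tested genes, and in none was it the lower without overlap, against 6.34%. The 5 were Nfkb2, Relb, Irf1 and, named after their values were seen, Nfkbia and Jun. Nfkb2, whose product is the processed subunit of the non-canonical NF-kB pathway, read 1155 and 1202 in TNF-LTBR and 418, 322 and 252 in control. Its partner Relb read 336 and 400 in TNF-LTBR and 284, 181 and 240 in control. Irf1, which acts on the promoters of interferon-induced chemokines, read 1706 and 1907 in TNF-LTBR and 1142, 1218 and 1280 in control. The log2 changes were 1.81, 0.63 and 0.57, and none passed limma after adjustment (adjusted p 0.999). Rel, an NF-kB subunit gene under the brightness limit and named after its values were seen, was lower without overlap, at 39.6 and 46.8 in TNF-LTBR and 62.4, 70.6 and 78.2 in control. It was the 1 of all 13 that was lower without overlap. The share of such genes was not counted without a filter. Irf3 and Irf9 had log2 changes of -0.15 and -0.04, with overlap.

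Of 13 inducing cytokines and their receptors 7 were tested, all of them receptors, with 5 higher, 2 lower and a median log2 change of 0.36. TNF-LTBR was higher without overlap for 3, where 6.94% of all tested genes were, namely the interferon receptor genes Ifngr2, Ifnar1 and, named after its values were seen, Ifnar2. Ifngr2 read 1936 and 1897 in TNF-LTBR and 1361, 1232 and 882 in control, a log2 change of 0.74. Ifnar1 read 913 and 964 in TNF-LTBR and 714, 745 and 718 in control, a log2 change of 0.36. Tnfrsf1a, the main TNF receptor, and Ltbr had log2 changes of -0.05 and -0.04, with overlap.

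Of 7 tested genes induced by interferon-gamma 5 were higher and 2 lower, with a median log2 change of 0.49, and 1 was higher without overlap, against 6.94% of all tested genes, the immunoproteasome gene Psmb8 with a log2 change of 1.5. Under the brightness limit, and named after their values were seen, Socs1, an inhibitor of cytokine signalling, and Cd274, encoding PD-L1, were higher without overlap too. That made 3 of the 12 analysed with or without the filter, against 8.6% of all genes. Socs1 read 99.7 and 97.9 in TNF-LTBR and 50.3, 45.0 and 44.7 in control, and Cd274 142 and 106 in TNF-LTBR and 82.9, 90.1 and 104 in control. The log2 change of Gbp2, an interferon-induced GTPase, was 0.94, and those of the related Irgm1 and Iigp1 were -0.14 and -0.00346. Of 11 tested type I interferon genes 9 were higher and 2 lower, with a median log2 change of 0.25, and 1 was higher without overlap, the RNA sensor gene Ddx58 with a log2 change of 0.66, a share near the 6.94% of all tested genes. The antiviral genes Bst2, Ifit2 and Rsad2 had log2 changes of 0.72, -0.32 and -0.33. None of these genes passed limma after adjustment (adjusted p 0.999 each).

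Of 20 other chemokine genes 12 were tested, with 8 higher, 4 lower and a median log2 change of 0.37. TNF-LTBR was higher without overlap for 3, against 6.94% of all tested genes, and these were Ccl2, Ccl9 and, named after its values were seen, Ccl4. Ccl2, which attracts monocytes, read 14769 and 9853 in TNF-LTBR and 887, 3997 and 438 in control, a log2 change of 3.36. Dropping control array 2 moved this change to 4.24, and dropping control array 3 to 2.67. Ccl27a and Cxcl13 had log2 changes of -0.24 and -0.22, with overlap.

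**Figure D4:**
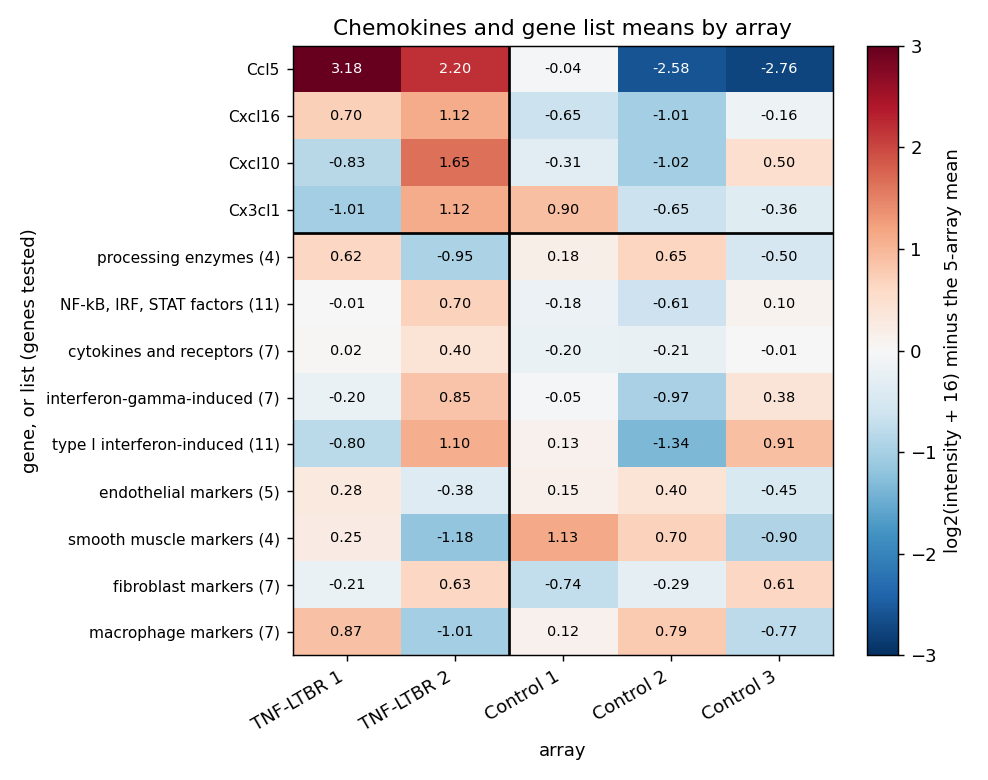
Log2(intensity + 16) on each array minus the 5-array mean, for 4 chemokines (above the line) and for the means of 9 gene lists (below, with the number of genes tested). The Cxcl10 row and the interferon rows share their order of arrays, with TNF-LTBR 2 highest and control 2 lowest. Cxcl16, the factor row and the cytokine and receptor row have the same highest and lowest array. The Ccl5 row has its highest values, 3.18 and 2.20, on the TNF-LTBR arrays.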

How the data were processed

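RNA expression was measured on 5 one-colour arrays, 2 titled TNF-LTBR and 3 titled control. Each probe set has 1 deposited intensity per array, on a linear scale, made with GCOS 1.4 per the submitters' processing notes. How probes were summarised and scaled is not stated there. With 2% of probe sets trimmed at either end, each array's mean was 500.0, and medians lay between 109.9 and 120.7, so values were used as deposited. The number of arrays limits the precision.

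Gene symbols came from the platform annotation (34958 probe sets with 1 symbol, 932 with several, 9211 with none listed). Intensities were transformed as log2(intensity + 16). Each of 18194 genes was represented by its brightest probe set, and the 60% with the highest mean (10916 genes, mean log2 of at least 7.17) were tested with limma 3.58.1 in R 4.3.3 (lmFit, eBayes with trend, two-sided, Benjamini-Hochberg over all tested genes, threshold 0.05, 3 residual degrees of freedom), after a test on simulated data. Cxcl9, Cxcl11 and other genes under the limit were taken from the fit without a filter. Named genes were all chemokines of the set, all listed receptors and processing enzymes, up to 2 genes per direction with the smallest p from each other list, Tnfrsf1a, Ltbr, Irf1, Nfkb2 and Relb, and the 3 genes nearest to each chemokine in profile. The chemokines and lists were chosen with earlier results of these data known. Some listed genes are not reported here. Alternatives were other pseudocounts (1 and 64), no filter or a filter keeping 40%, quantile normalization, median centring, other probe set rules, eBayes without trend, array weights, a block for the replicate number, and omission of single arrays. Promoter sequences were RefSeq's (GRCm38.p6), and no probe coordinates were used.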

Additional observations from a re-analysis of the deposited data

How the results depend on the processing

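Ccl5 and Cxcl16 kept a positive change in every alternative tried, from 3.43 to 5.36 and from 1.31 to 1.75 on the log2 scale, and none of the 6 chemokines passed limma in any of them (adjusted p of at least 0.883). No gene passed in any of the 17 alternatives, whose smallest adjusted p was 0.563. The filter that kept 40% of genes left Ccl5 and Cxcl10 untested. Ccl5 was also under the 60% filter with 1 added and without either TNF-LTBR array, and Cxcl10 without TNF-LTBR replicate 2, so their values there come from the fit without a filter. Leaving out 1 array turned the other 4, whose log2 changes ran from -0.16 to 1.08 for Cxcl9, -0.55 to 1.92 for Cxcl10, -0.60 to 0.46 for Cxcl11 and -0.98 to 1.16 for Cx3cl1. The count of chemokines with a higher mean was 3 to 6 across these fits, and 3 without TNF-LTBR replicate 2. The count without overlap was 2 to 5, and 5 without TNF-LTBR replicate 1, a fit in which a single array has to clear the controls. Averaging all probe sets of a gene gave Cxcl11 0.066, Adam10 0.027, Dpp4 0.017, Iigp1 0.014 and Rsad2 0.069. Array quality weights gave Cx3cl1 -0.074, Irf9 0.069, Iigp1 0.14 and Slc7a11 -0.032, and leaving out probe sets with shared-sequence suffixes gave Iigp1 0.032 and Birc3 0.015, against 1.58 for Birc3 with them.

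With the replicate number as a block, which takes control replicate 3 out of the comparison, the log2 changes were 4.01 for Ccl5, 1.75 for Cxcl16, 1.08 for Cxcl10, 0.80 for Cxcl9, -0.14 for Cxcl11 and -0.072 for Cx3cl1, and 0 genes passed. The block also turned Ccr3 (0.065), Ackr1 (-0.050), Ackr3 (-0.016), Irf9 (0.27), Iigp1 (0.43) and Slc7a11 (-0.00628). Arrays with the same number correlated in their deviations from the group means at 0.13 for number 1 and -0.80 for number 2. The deviations of the 2 TNF-LTBR arrays are mirror images, so these values cannot show whether same-numbered arrays share an origin. The labels do not say. Among the other named genes whose direction turned, the log2 change without single arrays ran from -0.47 to 2.35 for AW112010, -0.084 to 0.28 for Ackr1, -0.90 to 1.9 for Ackr3, -0.16 to 0.091 for Adam10, -0.35 to 1.79 for Bst2, -0.29 to 0.065 for Ccr3, -1.14 to 0.45 for Cdo1, -3.81 to 1.62 for Ctss, -0.32 to 0.22 for Dpp4, -0.68 to 0.030 for Ifit2, -0.86 to 0.85 for Iigp1, -0.71 to 1.78 for Irf7, -0.57 to 0.49 for Irf9, -0.42 to 0.14 for Irgm1, -0.22 to 0.14 for Ltbr, -0.63 to 1.63 for Mlph, -0.72 to 0.23 for Mmp2, -1.15 to 0.48 for Rsad2, -0.50 to 0.64 for Slc7a11, -0.37 to 1.36 for Stc2 and -0.33 to 0.22 for Tnfrsf1a. The cause was not tested for any of these. Dim probe sets, such as those of Cxcl9, Cxcl11 and Cx3cr1, lie where the added 16 is of the order of the intensity, which limits what they can show.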
